A study of Homo sapiens with 6 samples.

Results

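Genes that mark the epithelial-mesenchymal transition (EMT) were followed in Hep3B cells with and without knockdown of DAGLA, the gene of diacylglycerol lipase alpha, which makes the endocannabinoid 2-arachidonoylglycerol. The 10 genes were chosen by name. They are the 6 EMT transcription factors SNAI1, SNAI2, TWIST1, TWIST2, ZEB1 and ZEB2, the cadherins CDH1 and CDH2, and the mesenchymal proteins VIM and FN1. Of the 10, 9 were among the 29908 Ensembl genes analysed, and TWIST2 was not analysed here. The minimum for a test was 0.5 FPKM, averaged across all 6 libraries, and 7 of the 9 reached it. SNAI2 (mean 0.575 FPKM) and ZEB1 (0.653 FPKM) lay just above that minimum, and ZEB2 (0.0173 FPKM) and TWIST1 (0.0144 FPKM) lay below it.

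Hep3B is a widely used cell line from a human hepatocellular carcinoma. Hep3B-KD cells had received a lentivirus with a short hairpin RNA against DAGLA (shDAGLA), and Hep3B-Con cells had received a control lentivirus, which the sample titles call shControl and the series design calls an empty vector. Both groups were infected at a multiplicity of infection of 5 and selected with puromycin, and each gave 3 RNA sequencing libraries. The libraries hold 1 hairpin in 1 cell line, so that an effect of DAGLA loss and another effect of that hairpin cannot be told apart. The series calls the 3 libraries of a group biological replicates without saying whether they came from separate infections, so p-values measure the spread between these samples. Values are FPKM, that is, reads scaled to exon length and to the depth of the library.

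In EMT, epithelial cells loosen their junctions and take on a migratory, mesenchymal shape. The SNAI and ZEB factors are zinc finger repressors that bind E-box motifs, among others in the promoter of CDH1, and the TWIST factors are basic helix-loop-helix proteins that bind E-boxes as dimers. The cadherin switch is the loss of E-cadherin (CDH1), the adhesion protein of epithelial junctions, with gain of N-cadherin (CDH2). Hepatocytes normally carry both cadherins.

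Both cadherins were higher in Hep3B-KD cells, FN1 was also higher, and VIM and SNAI1 were lower. Of the 7 genes tested, 5 passed an adjusted p of 0.05 (limma, Benjamini-Hochberg over 14221 genes), against 59.9% of all genes tested. Higher calls numbered 3 of 7 against 36.1% of all genes, and lower calls 2 of 7 against 23.8%. A change of at least 2-fold was called for 1 of the 7, SNAI1, against 8.83% of all genes. The 3 values of one group all lay on one side of the 3 values of the other for 6 of the 7, against 66.9% of all genes. The counts are thus near the share found across the whole table. The median log2 fold change was 0.36 over the 7 genes and 0.11 over all genes tested. In bulk RNA, fewer cells with a transcript and less of it per cell cannot be told apart.

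**Figure D1:**
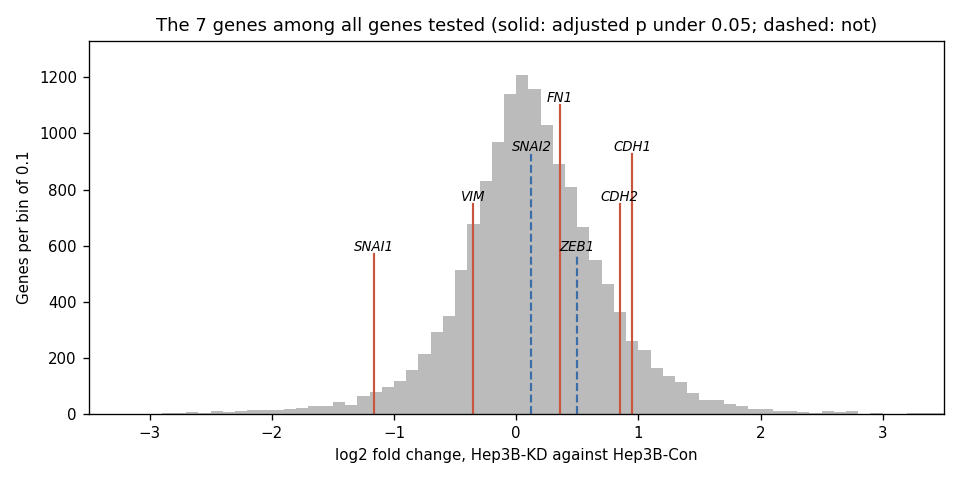
Histogram of the log2 fold change (Hep3B-KD against Hep3B-Con, x axis) of all 14221 genes tested, in bins of 0.1, with the number of genes on the y axis and the 7 EMT genes as vertical lines whose height carries no value. SNAI1 (-1.17) lies in the left tail, CDH2 (0.85) and CDH1 (0.95) in the right shoulder, and SNAI2 (0.13) near the median of 0.11.

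DAGLA itself, the targeted gene, had 9.42, 9.40 and 9.02 FPKM in Hep3B-Con replicates 1 to 3 and 4.62, 4.46 and 4.78 FPKM in Hep3B-KD replicates 1 to 3. The groups were well apart, with a log2 fold change of -0.99 ± 0.04 (SE) and an adjusted p of 5.25e-06 (limma). Libraries held 15861039 to 17572714 reads. The 9 hepatocyte markers were listed with earlier results of these data known. All were tested, 7 were called higher and 2 lower, against 36.1% and 23.8% of all genes tested. The higher call of SERPINA1 was lost when libraries were centred on the median log ratio (log2 0.03, adjusted p 0.136, limma). The summed FPKM of the 9 was 2717 to 2765 in Hep3B-Con and 4400 to 4423 in Hep3B-KD libraries. ALB (albumin) made up most of this sum, at 2042 and 3315 FPKM, and without it the sum was 688 to 696 and 1088 to 1104 FPKM. The markers that fell were HNF4A, a hepatocyte transcription factor (log2 -0.35), and FGB, a fibrinogen chain (log2 -0.96). Of 12 markers of stromal, endothelial and blood cells, 4 were tested. Called lower were 3, COL1A1, LUM and PDGFRB, against 23.8% of all genes tested. COL1A1 (0.746 and 0.271 FPKM) passed the minimum only through the Hep3B-Con libraries. The summed FPKM of the 11 markers analysed was 10.4 to 11.9 in Hep3B-Con and 6.94 to 7.57 in Hep3B-KD libraries. Most of it came from LUM (6.03 and 3.29 FPKM) and PDGFRB (2.67 and 2.11 FPKM). Below the minimum for a test, the endothelial PECAM1 had 0.197 and 0.340 FPKM (79 and 128 reads, groups not overlapping) and the pericyte gene RGS5 had 0.252 and 0.381 FPKM (47 and 67 reads, groups overlapping). PTPRC, CDH5, COL3A1 and DCN had at most 6 reads in any library. The part of these marker shifts in the results on the EMT genes was not tested.

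The hairpin is shown because a guide strand can also pair through its seed (bases 2 to 8) with other messages. The target lies in coding sequence of DAGLA, in exon 18 of 20 of DAGLA-201, at chr11:61740504-61740522 on the plus strand of GRCh38. The guide was taken as the reverse complement of the 19-base target, and capitals mark the seed, or the bases that pair with it.
shDAGLA target: gcgacaacaagGCCTTCAa
Guide: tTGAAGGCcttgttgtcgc
ZEB1 3′ UTR: gctctaacccGCCTTCAtccaatgtgt
Among the 9 genes, ZEB1 alone held the 7-base match in its longest GENCODE 3′ UTR, 1 time, at chr10:31528179-31528185 on the plus strand of GRCh38. Of 11184 expressed genes with a 3′ UTR, 1626 (14.5%) held such a match. The match is a description of the letters, and binding of the guide was not measured.

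**Figure D2:**
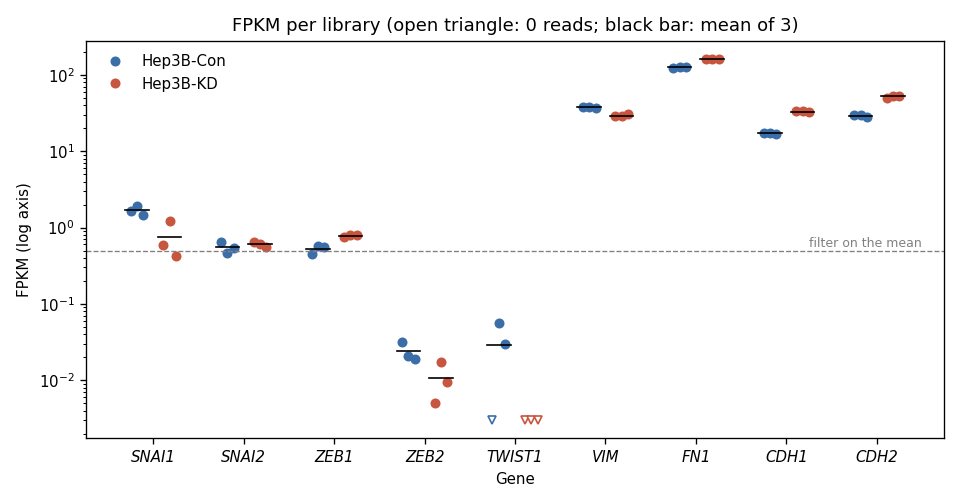
FPKM of the 9 genes on a log axis, with 1 point for each of the 3 Hep3B-Con (blue) and 3 Hep3B-KD (red) libraries, a black bar at the group mean, and open triangles for libraries with 0 reads. VIM, FN1, CDH1 and CDH2 lie between 16.6 and 162 FPKM with tight replicates, while no library of the transcription factors exceeds 1.91 FPKM.

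The transcription factors were scarce in these cells. SNAI1 (ENSG00000124216, chr20:49982999-49988886, plus strand, GRCh38), a repressor of CDH1 in EMT, had the highest FPKM of them in Hep3B-Con cells. It had 1.65, 1.91 and 1.46 FPKM in replicates 1 to 3. In Hep3B-KD replicates 1 to 3 it had 0.598, 1.22 and 0.429 FPKM. The groups did not overlap, but Hep3B-KD replicate 2 lay close to the lowest Hep3B-Con value. SNAI1 fell by 1.17 ± 0.33 (SE) on the log2 scale, with a 95% interval from -1.97 to -0.36 and an adjusted p of 0.0215 (limma), from 1.68 ± 0.23 to 0.749 ± 0.416 FPKM (SD, n = 3). These values rest on 146 control and 61 knockdown reads, a ratio per library read of 0.444 (95% interval 0.324 to 0.603, counting error only). The exact two-sided permutation test gave p = 0.1, the smallest that 3 against 3 libraries allow. The call was lost when any 1 of 4 libraries was left out: the adjusted p was 0.0556 and 0.0694 without Hep3B-Con replicates 1 and 2, and 0.0638 and 0.05 without Hep3B-KD replicates 1 and 3. Without Hep3B-KD replicate 2 the log2 fold change was -1.54, with an adjusted p of 0.00156.

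SNAI2 (ENSG00000019549), the close relative also called Slug, had 0.654, 0.458 and 0.531 FPKM in Hep3B-Con replicates 1 to 3 and 0.651, 0.606 and 0.551 FPKM in Hep3B-KD replicates 1 to 3. The groups overlapped, and the log2 fold change of 0.13 ± 0.22 (SE) had a 95% interval from -0.41 to 0.66 and an adjusted p of 0.656 (limma). Its sign turned under quantile normalization (-0.20). With 96 and 99 reads per group, the ratio per library read was 1.1 (95% interval 0.82 to 1.47, counting error only). A small change of SNAI2 in either direction therefore cannot be told from none.

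ZEB1 (ENSG00000148516, chr10:31318495-31529814, plus strand), a zinc finger and homeobox repressor of epithelial genes, had 0.454, 0.565 and 0.556 FPKM in Hep3B-Con replicates 1 to 3. In Hep3B-KD replicates 1 to 3 it had 0.758, 0.792 and 0.794 FPKM. All 3 Hep3B-KD values lay above all 3 Hep3B-Con values, yet the log2 fold change of 0.50 ± 0.19 (SE; 95% interval 0.05 to 0.95) missed the threshold, with an adjusted p of 0.0564 (limma). It passed in 3 of 15 alternatives, with an adjusted p of 0.00191 by voom on the recovered reads, 0.00401 without the variance trend, and 0.0454 with a pseudocount of 1. Its log2 fold change was 0.40 (adjusted p 0.113, limma) centred on the median log ratio and 0.19 (adjusted p 0.448) under quantile normalization. The ratio per library read was 1.49 (95% interval 1.26 to 1.77, counting error only, without the spread between libraries) from 234 and 328 reads. ZEB1-AS1, on the opposite strand, shares 366 exon bases with ZEB1 and had 77 control and 53 knockdown reads; whether the counting used strand is not given in the sources used here.

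ZEB2 and TWIST1 were near 0. ZEB2 (chr2:144364364-144524583, minus strand), the paralogue of ZEB1, had 14, 9 and 8 reads in Hep3B-Con replicates 1 to 3 and 2, 7 and 4 reads in Hep3B-KD replicates 1 to 3. The groups did not overlap, at a ratio per library read of 0.446 (95% interval 0.214 to 0.877, counting error only). The limma fit without the minimum gave an adjusted p of 0.468. TWIST1 (chr7:19020991-19117672, minus strand) had 0, 2 and 1 reads in Hep3B-Con libraries and 0 reads in all 3 Hep3B-KD libraries. A count of 0 allows up to 3 reads per library, and both groups lay at or under this floor, so no fold is given.

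The cadherins moved in the same direction. CDH1 (ENSG00000039068, chr16:68737225-68835548, plus strand), E-cadherin, had 17.5, 17.1 and 16.6 FPKM in Hep3B-Con replicates 1 to 3 and 33.3, 33.1 and 32.5 FPKM in Hep3B-KD replicates 1 to 3. The Hep3B-KD libraries lay close together and far above the controls, and CDH1 rose 1.93-fold (log2 0.95 ± 0.03 SE, adjusted p 1.32e-06, limma). CDH2 (ENSG00000170558, chr18:27950966-28177446, minus strand), N-cadherin, had 29.3, 29.3 and 28.2 FPKM in Hep3B-Con replicates 1 to 3 and 50.1, 53.3 and 53.2 FPKM in Hep3B-KD replicates 1 to 3. It rose 1.80-fold (log2 0.85 ± 0.03 SE, adjusted p 3.16e-06, limma), again without overlap. Both calls held in 16 of 16 alternatives, at 0.84 for CDH1 and 0.74 for CDH2 when libraries were centred on the median log ratio.

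VIM and FN1, both counted as mesenchymal, moved in opposite directions. VIM (ENSG00000026025, chr10:17228259-17237593, plus strand), the intermediate filament protein vimentin, had 37.5, 37.8 and 36.7 FPKM in Hep3B-Con replicates 1 to 3 and 28.6, 28.6 and 30.5 FPKM in Hep3B-KD replicates 1 to 3. It was lower in each Hep3B-KD library and fell by 0.35 ± 0.03 (SE) on the log2 scale, with an adjusted p of 0.000106 (limma). FN1 (ENSG00000115414, chr2:215360440-215436172, minus strand), the matrix glycoprotein fibronectin, which hepatocytes also secrete, had 124, 127 and 126 FPKM in Hep3B-Con replicates 1 to 3. In Hep3B-KD replicates 1 to 3 it had 162, 159 and 160 FPKM. It rose 1.28-fold (log2 0.36 ± 0.02 SE, adjusted p 6.35e-06, limma), and both calls held in 16 of 16 alternatives. VIM-AS1, which shares 641 exon bases with VIM on the opposite strand, had only 4 to 17 reads per library.

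**Figure D3:**
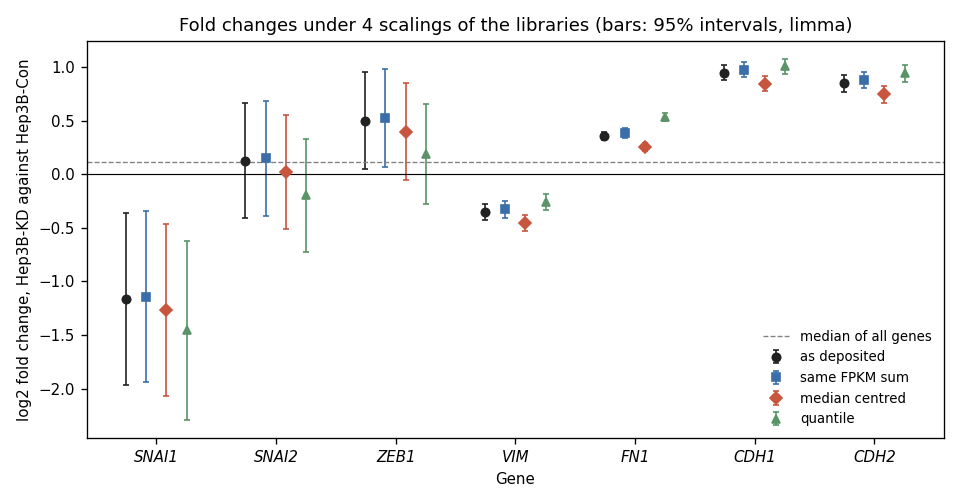
Log2 fold change (Hep3B-KD against Hep3B-Con, y axis) of the 7 tested genes with 95% intervals from limma, for the deposited values and for 3 other scalings of the libraries; the dashed line is the median of all genes, 0.11. The signs of SNAI1, ZEB1, VIM, FN1, CDH1 and CDH2 hold under all 4, and SNAI2 turns to -0.20 under quantile normalization.

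FPKM divides reads by the length of all annotated exons of a gene. That length was 5158 bases for VIM, 6177 for CDH1, 4950 for CDH2 and 17315 for FN1. A transcript can be shorter, so the order given here is one of FPKM and not of molecules. In Hep3B-Con cells the order was FN1, VIM, CDH2, CDH1 and SNAI1, with no overlap between neighbours over the 3 libraries, followed by SNAI2 and ZEB1, which overlapped. In Hep3B-KD cells the order was FN1, CDH2, CDH1 and VIM, again without overlap, so VIM stood below both cadherins in FPKM. ZEB1, SNAI1 and SNAI2 followed, and SNAI1 overlapped both of the others. Among the 14221 genes ranked by mean FPKM, CDH1 stood at rank 2803 in Hep3B-Con and 1276 in Hep3B-KD cells, and SNAI1 at 10224 and 13174.

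Ratios within a library do not change when all values of a library are multiplied by 1 factor. Quantile normalization is not of that kind and can change them. The ratio of CDH2 to CDH1 was 1.67, 1.72 and 1.7 in Hep3B-Con replicates 1 to 3 and 1.5, 1.61 and 1.64 in Hep3B-KD replicates 1 to 3. CDH2 thus exceeded CDH1 in FPKM in all 6 libraries, and the mean log2 ratio differed by -0.10, without overlap. Without Hep3B-KD replicate 1 the difference was -0.06. The ratio of VIM to CDH1 was 2.14, 2.21 and 2.22 in Hep3B-Con and 0.858, 0.865 and 0.936 in Hep3B-KD libraries. The mean log2 ratio of VIM to CDH1 thus differed by -1.305. Whether such a ratio lies above or below 1 depends on the exon lengths used, while its change between groups does not. The mean log2 ratio of FN1 to CDH1 went from 2.88 to 2.28, although FN1 itself rose, and that of SNAI1 to CDH1 from -3.36 to -5.60. No test was run on these ratios.

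**Figure D4:**
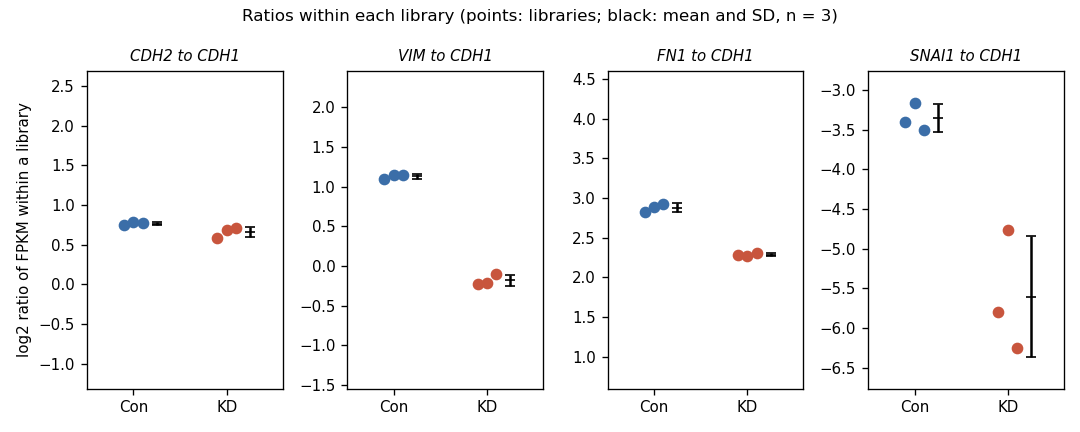
Log2 ratios of FPKM within each library (y axis, each panel spanning the same number of log2 units) for CDH2, VIM, FN1 and SNAI1 over CDH1, with 1 point per library and the mean and SD of each group in black (n = 3). VIM to CDH1 goes from a mean of 1.13 to -0.18, while CDH2 to CDH1 moves only from 0.76 to 0.66.

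The wider EMT circuit was described with 7 lists that had tested genes, by counts only, to be read against the 36.1% of all genes called higher and the 23.8% called lower. The lists were written with earlier results of these data known.

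Among other EMT factors and E-box partners, 11 of 17 were tested, of which 2 were called higher and 6 lower. Their median was -0.09 on the log2 scale. FOXC1, a forkhead factor, went from 0.966 to 0.603 FPKM (log2 -0.60, adjusted p 0.0199, limma). Its call was lost without Hep3B-Con replicate 1 (adjusted p 0.0706) or 2 (0.0621), and with the replicate number as a block (0.0606). ID1 and ID3, which bind basic helix-loop-helix proteins and keep them off E-boxes, fell by 0.45 and 0.33 on the log2 scale, while their relative ID4 rose by 0.48. Under quantile normalization ID1 was at -0.27 (adjusted p 0.0676, limma) and ID3 at -0.21, and the ID1 call was also lost without Hep3B-KD replicate 3 (adjusted p 0.0505). PRRX1 fell by 0.21 on the log2 scale, a call held in 7 of 16 alternatives and lost without any 1 of the 6 libraries, and SOX9 rose by 0.29 (0.19 centred on the median log ratio). The count of lower calls was 3 without Hep3B-Con replicate 1, without Hep3B-Con replicate 2 or without Hep3B-KD replicate 3.

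Corepressors that SNAI and ZEB proteins recruit went both ways. Of 16 tested, 6 were called higher and 4 lower, with a median of 0.04. SUZ12 and EZH2, subunits of the Polycomb complex that methylates histone H3, rose by 0.48 and 0.29, and EHMT2, a histone methyltransferase, by 0.35 on the log2 scale. SIN3A, a scaffold for histone deacetylases, rose by 0.24. CTBP2, a corepressor bound by ZEB1, fell by 0.68 on the log2 scale, RCOR1, the partner of the demethylase KDM1A, by 0.60, SUV39H1 by 0.35 and DNMT1 by 0.12. Centred on the median log ratio, 8 of the 16 were called lower, SIN3A was no longer called (log2 0.14, adjusted p 0.0533, limma) and EZH2 was at 0.19. The DNMT1 call was lost under quantile normalization (adjusted p 0.856, limma).

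SNAI1 is a short-lived protein, marked for breakdown by kinases and ubiquitin ligases. Of 18 genes that set its stability, all were tested, 8 were called higher and 7 lower, with a median of 0.20. CTDSP1 and CTDSP2, small phosphatases that can stabilise SNAI1, went from 21.1 to 7.67 FPKM and from 39.1 to 20.9 FPKM (log2 -1.45 and -0.90, adjusted p 3.66e-07 and 1.11e-06, limma). The ubiquitin ligase subunits FBXO45 and FBXW11 went from 8.97 to 4.44 FPKM and from 37.5 to 25.0 FPKM, whereas BTRC, the paralogue of FBXW11, rose by 0.60. The deubiquitinase USP37, the signalosome subunit COPS2 and the kinase PRKD1 rose by 0.78, 0.70 and 0.64 on the log2 scale. SNAI1 protein was not measured here.

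Several junction genes rose beside CDH1 and CDH2. Of 17 other cadherins and catenins, 8 were tested, 6 called higher and 2 lower, with a median of 0.35. CDH6, a type II cadherin, went from 8.97 to 20.6 FPKM (log2 1.19, adjusted p 8.19e-07, limma), and CDH4 (R-cadherin) from 0.356 to 0.733 FPKM (log2 0.87). CDH4 passed the minimum only through the Hep3B-KD libraries. The CDH4 call was lost under quantile normalization (log2 0.54, adjusted p 0.0896, limma) and without Hep3B-KD replicate 1 (adjusted p 0.0612). JUP (plakoglobin) and CTNND1 (p120 catenin), which bind cadherin tails, rose by 0.41 and 0.37 on the log2 scale. CTNNB1 and CTNNA1 (beta- and alpha-catenin) fell by only 0.09 and 0.08 on the log2 scale, and CTNNA1 turned sign under quantile normalization (0.03). Their calls held in 9 and 13 of 16 alternatives. The count of lower calls was 1 when Hep3B-Con replicate 1, Hep3B-Con replicate 3, Hep3B-KD replicate 2 or Hep3B-KD replicate 3 was left out.

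Epithelial genes did not move as one. Of 25 listed, 18 were tested, with 9 called higher, 6 lower and a median of 0.09. Centred on the median log ratio, 6 were called higher and 8 lower, so the balance of calls depended on scaling. The tight junction and polarity genes OCLN and PATJ rose by 0.61 and 0.76, and the desmosomal DSP by 0.41 on the log2 scale. KRT19, a keratin of bile duct cells, rose by 0.47, a call held in 10 of 16 alternatives and lost without Hep3B-Con replicate 2 or 3 or Hep3B-KD replicate 2 or 3 (adjusted p 0.0608 to 0.065, limma). CLDN1, another tight junction gene, fell from 404 to 283 FPKM (log2 -0.51, adjusted p 1.85e-06, limma). The polarity gene CRB3 fell by 0.55 on the log2 scale, and KRT18 and KRT8, the keratin pair of hepatocytes, by 0.55 and 0.33. Under quantile normalization CLDN1 was at -0.27 and KRT8 at -0.07 on the log2 scale, both still called.

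Matrix genes were among the mesenchymal genes that fell. Of 23 listed, 10 were tested, with 2 called higher, 7 lower and a median of -0.41, and 4 changed at least 2-fold. LOX, which cross-links collagen, went from 7.23 ± 0.21 to 2.51 ± 0.16 FPKM (SD, n = 3; log2 -1.49, adjusted p 3.83e-06, limma). The collagen gene COL1A1 went from 0.746 to 0.271 FPKM (log2 -1.20, and -0.46 with a pseudocount of 1). It passed the minimum only through the Hep3B-Con libraries. LUM, a matrix proteoglycan, fell by 0.86 on the log2 scale. COL1A1 and LUM are also among the stromal markers given above. NT5E, the ectonucleotidase CD73, rose by 1.56 on the log2 scale, and MMP14, a membrane metalloproteinase, by 0.26 (0.16 centred on the median log ratio).

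Partners of vimentin and fibronectin were split. Of 17 listed, 12 were tested, 6 called higher and 4 lower, with a median of 0.14. ITGB1, the beta subunit of the main fibronectin receptor, went from 161 to 57.4 FPKM (log2 -1.48, adjusted p 1.25e-07, limma), while ITGAV and ITGB6 rose by 0.87 and 0.83 on the log2 scale. ITGB6 had a mean of 0.495 FPKM in Hep3B-Con and 0.954 FPKM in Hep3B-KD, from 120 and 217 reads. It passed the minimum only through the Hep3B-KD libraries. The ITGB6 call was lost under quantile normalization (log2 0.52, adjusted p 0.0701, limma), and the ITGAV call held in 16 of 16 alternatives. TGM2, which cross-links fibronectin, fell by 1.5, the intermediate filament gene NES by 1.26 and the lamin gene LMNB1 by 0.42 on the log2 scale. SYNM, another intermediate filament gene, rose by 0.51, and FBLN1, a matrix protein that binds fibronectin, by 0.17 (0.07 centred on the median log ratio and 0.29 under quantile normalization).

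**Figure D5:**
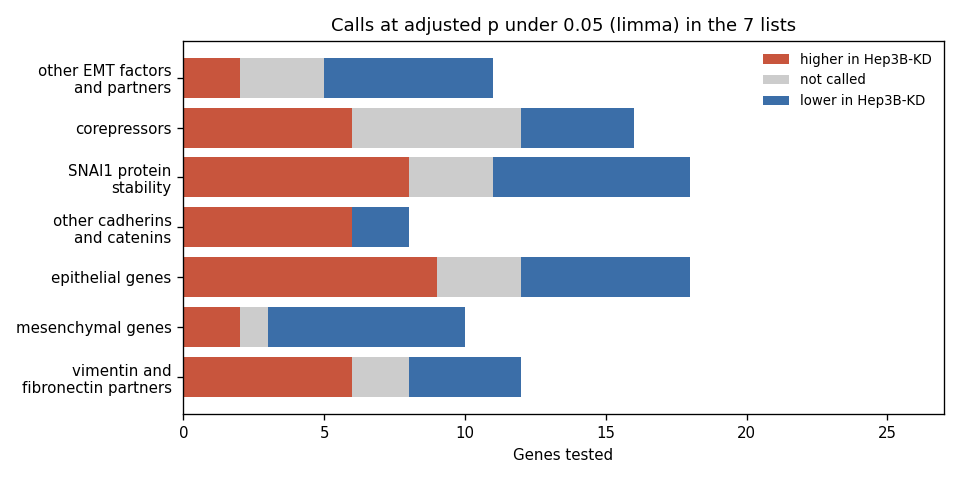
Number of tested genes (x axis) in each of the 7 lists called higher (red), called lower (blue) or not called (grey) in Hep3B-KD against Hep3B-Con, at an adjusted p under 0.05 from limma. Mesenchymal genes have 7 lower and 2 higher calls, and the other cadherins and catenins 6 higher and 2 lower.

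The E-box variant bound by SNAI and ZEB proteins, CAGGTG or CACCTG on the other strand, was looked for in the 250 bases upstream of RefSeq gene starts (GRCh38.p14). Of 35116 windows, 6143 (17.5%) held it. Among the 6 EMT genes with a window, ZEB1 held it in 2 of its 7 windows, and TWIST2, ZEB2, VIM, FN1 and CDH2 in none. CDH1, SNAI1, SNAI2 and TWIST1 were not analysed here for this motif. The broader E-box CANNTG, which includes the variant, was in 61.8% of all windows. It was in 4 of 7 windows of ZEB1, 1 of 2 of CDH2 and 1 of 1 of ZEB2. TWIST2, VIM and FN1 held it in none.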

How the data were processed

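RNA sequencing of 3 Hep3B-Con and 3 Hep3B-KD libraries was used, grouped by the sample titles. The authors deposited FPKM values in 1 table of 29908 genes. The submitters' processing notes name TopHat2 2.0.12, Bowtie2 2.0.6 and build GRCh37, whereas the FPKM values gave whole reads (100% of 138115 values above 0, within 0.01 read) with exon lengths of GENCODE release 29 (GRCh38), which also gave symbols and coordinates. The recovered reads summed to 15861039 to 17572714 per library. Intervals of ratios per library read and floors cover counting error only, while limma intervals rest on the spread between libraries. The strandedness of the counting is not given in the sources used here.

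log2(FPKM + 0.1) was tested for the 14221 genes that averaged 0.5 FPKM or more by limma 3.58.1 (lmFit, eBayes with trend; R 4.3.3), two-sided, with Benjamini-Hochberg adjustment. Fold changes are on the log2(FPKM + 0.1) scale, which understates those of low genes. The fit was tested on simulated data. Exact permutation tests, Poisson and binomial intervals were computed with scipy 1.17.1, and tables handled with pandas 2.3.3 and numpy 2.4.6 (Python 3.11.15). Alternatives were no minimum, a minimum of 1, pseudocounts of 1 and 0.01, TPM, median centring, quantile normalization, no trend, voom on recovered reads, a replicate block and leaving out each library. The genes and lists were chosen with earlier results of these data known. Named are all 10 genes, DAGLA, and per list up to 4 genes called higher and 4 called lower, those with the largest fold changes. The cell type markers were not named by this rule. A gene that this rule takes is not reported here. The antisense neighbours VIM-AS1, ZEB1-AS1 and SNAI3-AS1, a further list, were under the minimum. The hairpin target came from the study's list of constructs. Figures were drawn with matplotlib 3.10.9.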

Additional observations from a re-analysis of the deposited data

How the results depend on the processing

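Over 16 alternatives, CDH1, CDH2, FN1, VIM and DAGLA kept their direction and their call. SNAI1 was called in 12 of 16, and its log2 fold change ranged from -1.54 to -0.88 when 1 library was left out. ZEB1 passed the threshold with a pseudocount of 1 (0.22), without the variance trend (0.50) and by voom (0.58), and SNAI2 turned sign under quantile normalization (-0.20); the cause was not tested. Neither SNAI2 nor ZEB1 could be tested at a minimum of 1 FPKM. Of the EMT genes, 4 to 5 were called and 1 to 2 called lower when 1 library was left out, and the count at 2-fold was 0 to 1. That count was 0 with a pseudocount of 1, since the pseudocount shrinks the folds of low genes, and 2 under quantile normalization, against 1. With the replicate number as a block, 7919 genes were called against 8521, SNAI1 had an adjusted p of 0.0135 and ZEB1 of 0.112 (limma), and no call of the 7 genes changed; the block lowered the count of other EMT factors called lower from 6 to 3. Same-numbered libraries did not deviate together (r = -0.013, -0.066 and -0.001), which does not show whether they were handled as pairs. Of all calls, 60.2% were higher in Hep3B-KD, against 48.5% after centring on the median log ratio and 52.3% under quantile normalization. Genes called at 2-fold numbered 1256, and 503 with a pseudocount of 1. Quantile normalization gave 3 lower calls among the other EMT factors, and 0 among the other cadherins and catenins, as did TPM and the fit without trend. Depth limits SNAI1, SNAI2, ZEB1, ZEB2 and TWIST1, none of which exceeded 114 reads in a library.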
